A study of Mus musculus with 12 samples.

Results

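Interferon-stimulated genes are genes whose transcription rises when a cell is exposed to an interferon. The 51 described here were chosen by name, from textbook families of antiviral effectors, nucleic acid sensors and interferon-induced GTPases, and all 51 were found among the 55487 gene identifiers of the count table. All 51 had a mean of at least 0.5 counts per 1000000 (CPM) over the libraries and all 51 entered the test, as did 15897 genes in all. The libraries came from CD8+ T cells, the cytotoxic arm of the T cell compartment, taken from splenocytes of C57BL/6 mice and treated in 4 ways with 3 libraries each. One group received IL-2, a growth factor for activated T cells, and served as the control in the library titles. Another received IL-2 with 80%TCM, the third received IL-12, a cytokine that drives cytotoxic T cells towards interferon-gamma production, and the fourth received IL-12 with 80%TCM. TCM is not spelled out in the labels, and the series title speaks of tumor-like conditions. All groups share the strain, the organ and the CD8+ label, while age, sex, duration of treatment, cytokine concentration and the number of animals are unknown here. The labels do not tie the 3 libraries of a group to different animals or dishes, so the p-values rest on the spread between these libraries, which may be technical.

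Type I interferons signal through Ifnar1 and Ifnar2 and the kinases Jak1 and Tyk2 to a complex with Stat2 and Irf9, which binds the interferon-stimulated response element (ISRE). Interferon-gamma signals through Ifngr1 and Ifngr2 and the kinases Jak1 and Jak2, and its targets carry the gamma-activated site (GAS) or respond through Irf1. Many of the genes respond to both kinds of interferon, the guanylate-binding proteins and immunity-related GTPases most of all to interferon-gamma, and activated CD8+ T cells both make interferon-gamma and respond to interferons.

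The RefSeq promoter table of the mouse build GRCm38.p6 held 36 of the 51 genes. Stretches of 120 bases from 6 of these promoters are shown because the genes that carry them moved in different directions in the comparisons that follow. Each is written 5′ to 3′ on the gene's own strand, and capitals mark every match to the ISRE letters, which are GAAA, 2 bases of any kind and GAAA again. Both strands were searched, so TTTC, 2 bases and TTTC is the same motif read from the other strand, and adjacent matches can overlap.
Gbp2, chr3:142620543-142620662, plus strand: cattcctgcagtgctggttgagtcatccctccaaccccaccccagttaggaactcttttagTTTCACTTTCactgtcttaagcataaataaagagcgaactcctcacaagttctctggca
Ifit3, chr19:34583335-34583454, plus strand: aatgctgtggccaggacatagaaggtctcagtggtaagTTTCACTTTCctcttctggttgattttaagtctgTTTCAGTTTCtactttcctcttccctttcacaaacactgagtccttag
Irgm1, chr11:48871421-48871540, minus strand: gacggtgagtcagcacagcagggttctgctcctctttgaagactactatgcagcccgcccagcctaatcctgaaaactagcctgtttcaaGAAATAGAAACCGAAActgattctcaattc
Slfn5, chr11:82951892-82952011, plus strand: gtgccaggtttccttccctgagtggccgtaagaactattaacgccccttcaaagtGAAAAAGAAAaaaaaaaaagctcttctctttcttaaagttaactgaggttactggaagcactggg
Isg15, chr4:156200826-156200945, minus strand: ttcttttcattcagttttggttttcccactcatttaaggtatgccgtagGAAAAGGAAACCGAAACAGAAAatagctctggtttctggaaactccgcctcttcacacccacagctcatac
Ifi44, chr3:151749911-151750030, minus strand: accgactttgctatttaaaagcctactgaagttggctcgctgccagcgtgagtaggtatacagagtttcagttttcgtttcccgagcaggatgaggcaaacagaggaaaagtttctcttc
Gbp2 and Ifit3 were higher in the IL-12 libraries than in the IL-2 libraries, Irgm1 and Slfn5 were lower, and Isg15 was higher in the comparison made with TCM. Ifi44, among the genes that differed most between the cytokines, had no match to these letters in the window. In the 250 bases before the start site, the ISRE letters stood in 18 of the 36 promoters (50%), against 2.98% of all 32851 promoters in the table. The GAS letters, TTC, 3 bases of any kind and GAA, stood in 9 of the 36 (25%), against 7.02% of all promoters. Igtp, Irgm2, Gbp5, Gbp7, Bst2 and Oas1a carried both. A match describes the letters in the window and does not show binding.

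Each library held between 19500568 and 26007717 counts, except IL-12 replicates 1 and 2 with 49638920 and 42349121. Replicate 3 of both IL-2 groups stood apart from its partners: the chi-square of counts per degree of freedom between replicates was 28.5 to 45.4 for pairs with one of these libraries and 2.40 to 5.51 for all other pairs of a group; no pair agreed within sampling noise, which would give a value near 1. Among the interferon-stimulated genes, IL-2 replicate 3 was the highest of its group for 34 of 51 (66.7%), against 43.8% of all genes tested, and IL-2 80%TCM replicate 3 was the lowest of its group for 27 of 51 (52.9%), against 40.0% of all genes. The summed level of 7 CD8+ T cell markers was 3526 to 4472 CPM over the libraries. Plasmacytoid dendritic cell markers, from the cell type best known for type I interferon, summed to 8.05 to 16.9 CPM over 6 genes, with Siglech at 0 in all groups but IL-2. Without Tcf4, the highest of them, they summed to 6.44 to 9.89 CPM in the IL-2 groups and 1.88 to 2.74 CPM in the IL-12 groups. Most of that sum was Ccr9 alone. Its means were 7.32 and 8.84 CPM in IL-2 without and with TCM, and 1.57 and 2.32 CPM in IL-12. Markers of macrophages, monocytes and dendritic cells summed to 3.50 to 8.17 CPM over 13 genes in the IL-2 groups and to 9.54 to 13.0 CPM in the IL-12 groups, with C1qa and Cd209a at 0 in every library. That order rested on Xcr1 alone. The other 12 genes summed to 2.66 to 5.02 CPM in the IL-2 groups and 1.56 to 2.40 CPM in the IL-12 groups. Among them, Mpeg1 was lower in IL-12 without TCM (log2 fold change -1.81 (adjusted p = 0.003 by edgeR)) and with TCM (-2.15 (adjusted p = 0.0029)). Itgam was lower without TCM (-1.84 (adjusted p = 0.0042)) and not called with it (-0.44 (adjusted p = 0.42)). Lyz2 was called in neither (-0.76 (adjusted p = 0.098) and 0.63 (adjusted p = 0.32)). With TCM its IL-12 libraries lay above all its IL-2 libraries. In bulk samples such as these, fewer cells of a type and less RNA per cell cannot be told apart.

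Across the 4 groups the genes did not move as a block. The IL-2 group had the highest mean for 22 of the 51 genes and the IL-12 group the lowest for 26. The IL-12 80%TCM group had the highest mean for 13, the IL-2 80%TCM group for 9 and the IL-12 group for 7.

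**Figure D1:**
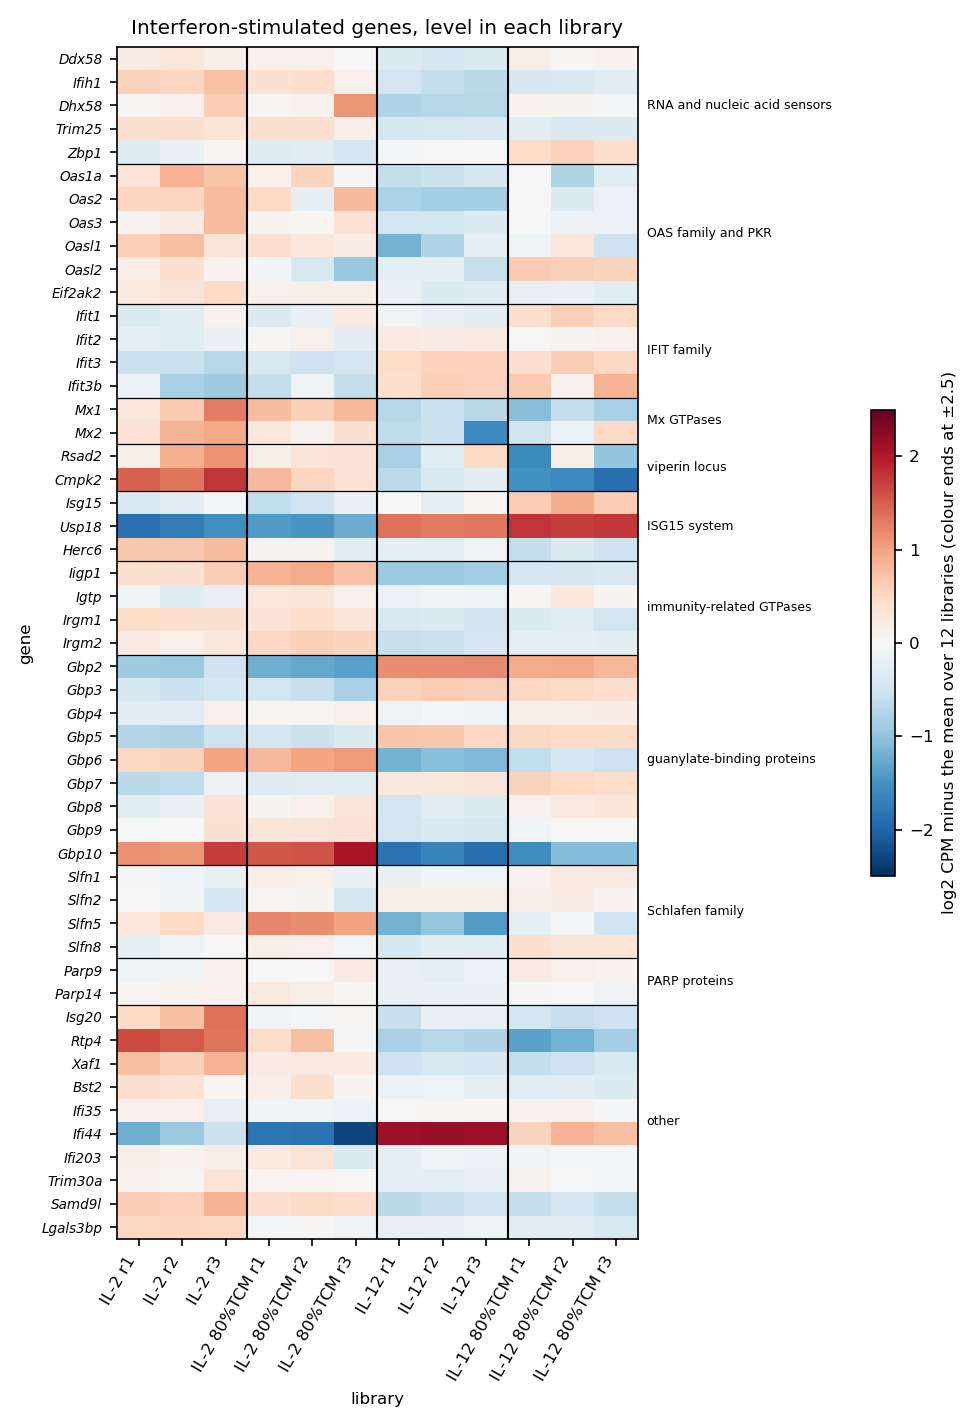
Level of each of the 51 interferon-stimulated genes (rows, grouped by family) in each of the 12 libraries (columns, r1 to r3 are replicates), as log2 CPM minus the gene's mean over the libraries. Usp18, Ifi44 and Gbp2 are red in both IL-12 groups, while Gbp10, Cmpk2 and Slfn5 are red in the IL-2 groups, and most rows in the IL-12 group without TCM are blue.

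The first question was how IL-12 compared with IL-2 in the absence of TCM. Of the 51 genes, 10 were higher and 30 lower in the IL-12 libraries at an adjusted p below 0.05 (edgeR quasi-likelihood test with Benjamini-Hochberg adjustment over all genes tested). Of all genes tested 45.1% were called, 22.1% as higher and 23.0% as lower, so the share of interferon-stimulated genes called lower, 58.8%, lay above the background and the share called higher, 19.6%, near it. The median log2 fold change was -0.55, against -0.01 over all genes tested. At least a doubling was seen for 7 of the genes called higher and at least a halving for 16 of those called lower. The matching shares of all genes tested were not counted. In the IL-12 libraries with TCM, compared with the IL-2 libraries with TCM, 13 were higher and 20 lower, with 39.0% of all genes called, 19.5% higher and 19.4% lower, and the median was -0.25. In both comparisons 8 genes were higher and 20 lower. The comparisons share no libraries with each other. The libraries of the 2 cytokines did not overlap for 10 genes that were higher and 32 that were lower in IL-12 without TCM, against 28.4% and 28.9% of all genes tested (57.3% in either direction), and for 16 and 22 with TCM, against 25.1% and 24.9%.

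**Figure D2:**
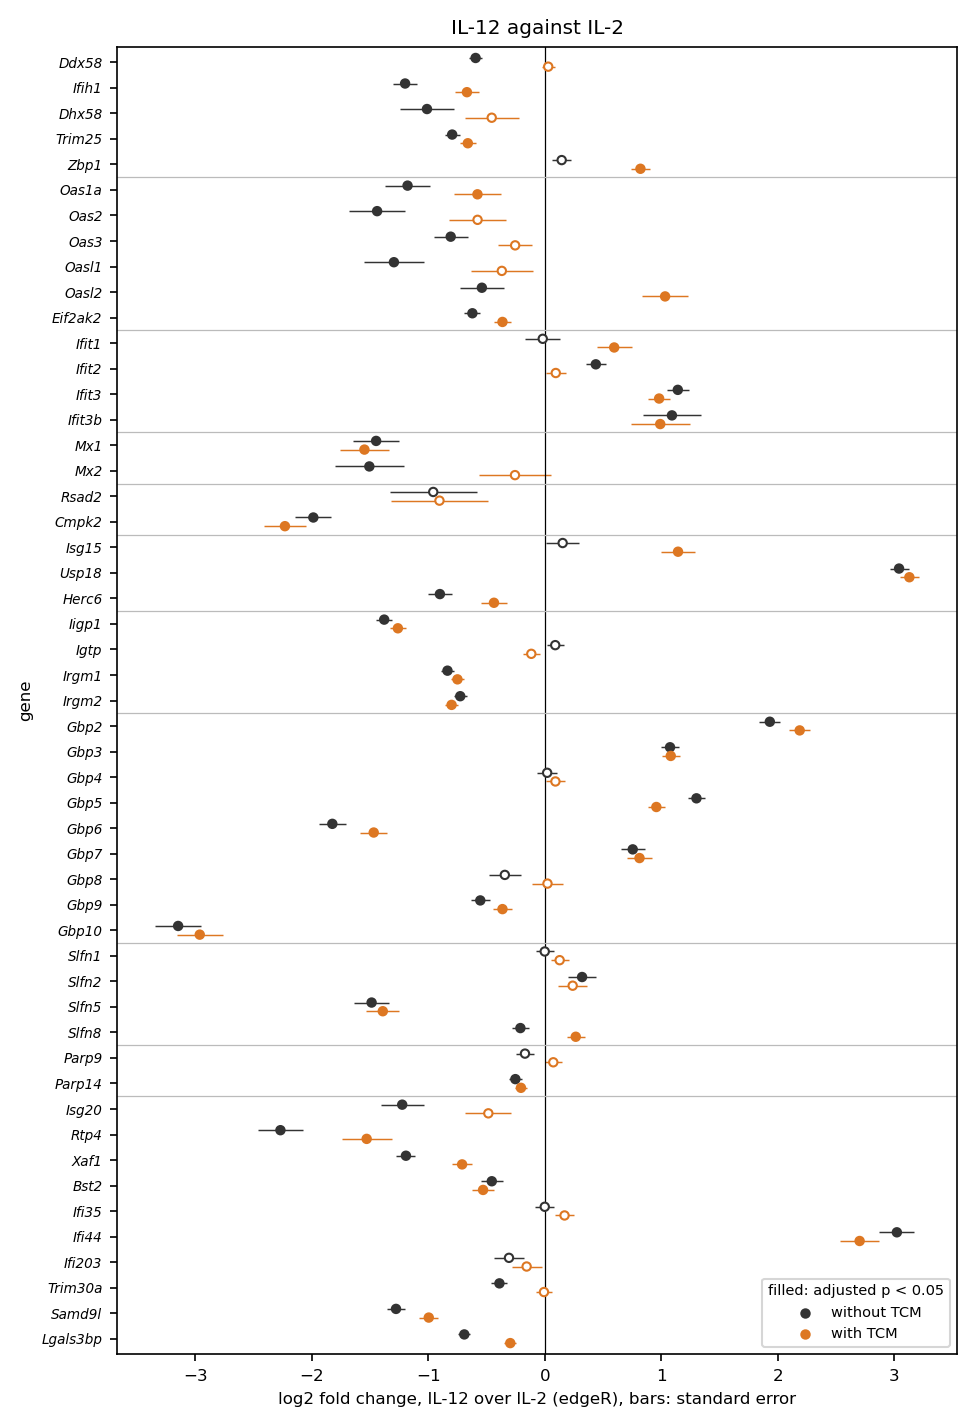
Log2 fold change of IL-12 over IL-2 for each gene, without TCM (black) and with TCM (orange), with bars for the standard error, filled points for an adjusted p below 0.05 and grey lines between families. Usp18 and Ifi44 lie near 3 on the right in both, Gbp10 near -3 on the left, and the OAS family lies left of 0 without TCM.

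In the ISG15 system, the 3 genes went different ways. Usp18 removes Isg15 from its target proteins and also sits on the type I interferon receptor, where it blocks signalling. Its level was 21.7, 23.6 and 27.3 CPM in the IL-2 libraries and 203, 196 and 198 CPM in the IL-12 libraries, and 29.8, 28.7 and 33.7 CPM against 272, 263 and 271 CPM with TCM. The groups were far apart in every library, by 8.22-fold without TCM (log2 fold change 3.04 ± 0.08 (SE), adjusted p = 1.1e-11) and 8.74-fold with TCM (log2 fold change 3.13 ± 0.08 (SE), adjusted p = 6.3e-12). Isg15, the ubiquitin-like modifier itself, did not pass the test between the cytokines without TCM, at 4.98, 5.36 and 6.3 CPM in IL-2 and 6.41, 5.56 and 6.59 CPM in IL-12 (adjusted p = 0.4, with overlapping groups). With TCM it stood at 4.22, 4.57 and 5.74 CPM in IL-2 and 10.1, 12.1 and 9.99 CPM in IL-12, a 2.21-fold difference without overlap (log2 fold change 1.14 ± 0.14 (SE), adjusted p = 3.2e-05). Herc6, the main ligase that attaches Isg15 in mice, was lower in IL-12, at 27.7, 27.9 and 30.4 CPM in IL-2 against 14.8, 14.9 and 16.5 CPM in IL-12 (log2 fold change -0.90 ± 0.10 (SE), adjusted p = 1.5e-05). The activating and conjugating enzymes of the same system, Uba7 and Ube2l6, were not among the 51. Without TCM they were lower in IL-12 as well, with log2 fold changes of -0.35 (adjusted p = 0.0037) and -1.26 (adjusted p = 5.2e-06). With TCM, Uba7 was at means of 98.8 CPM in IL-2 and 97.5 CPM in IL-12, and Ube2l6 at 12.3 and 6.78 CPM.

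The guanylate-binding proteins (GBPs), interferon-induced GTPases that coat intracellular pathogens and their vacuoles, divided in part by their place in the genome. That division was not tested. The 4 GBPs of the cluster on chromosome 3 (Gbp2, Gbp3, Gbp5, Gbp7) were all higher in IL-12, in both comparisons. Of the 5 on chromosome 5, Gbp6, Gbp9 and Gbp10 were lower in both, and Gbp4 and Gbp8 were called in neither. Without both IL-2 replicate 3 libraries, Gbp4 was called higher in IL-12 in both comparisons. Gbp8 was called lower in IL-12 without TCM by DESeq2. With TCM it was called higher when a term for the replicate number of the IL-2 libraries was added. Gbp2 was the most changed of the first cluster, at 323, 314 and 415 CPM in IL-2 and 1331, 1331 and 1348 CPM in IL-12 (log2 fold change 1.93 ± 0.09 (SE), adjusted p = 2.5e-09). With TCM it was at 257, 245 and 233 CPM in IL-2 and 1134, 1145 and 1066 CPM in IL-12, a 4.55-fold difference, and no library of one cytokine reached the range of the other. Gbp5, which also promotes inflammasome assembly, was at 78.5, 76.3 and 91.6 CPM in IL-2 and 212, 207 and 188 CPM in IL-12 (log2 fold change 1.30 ± 0.07 (SE), adjusted p = 1.8e-08). Gbp3 and Gbp7 rose by log2 fold changes of 1.07 (adjusted p = 1.4e-07) and 0.75 (adjusted p = 7.1e-05).

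On chromosome 5, Gbp10 was at 38.1, 36.8 and 57.7 CPM in IL-2 and 4.8, 5.41 and 4.68 CPM in IL-12, 8.85-fold lower (log2 fold change -3.15 ± 0.20 (SE), adjusted p = 4.4e-08). Gbp6 went the same way, with 76.3, 79.3 and 107 CPM in IL-2 and 23.5, 25.7 and 24.96 CPM in IL-12 (log2 fold change -1.82 ± 0.12 (SE), adjusted p = 4.8e-08). In both genes the IL-2 replicate 3 library was the highest, and all IL-12 libraries were below all IL-2 libraries. Gbp9 differed less, at 219, 217 and 283 against 157, 168 and 164 CPM (log2 fold change -0.55 ± 0.08 (SE), adjusted p = 0.00015). Gbp4 did not pass, at a mean of 359.9 ± 57.7 CPM in IL-2 and 365 ± 11.1 CPM in IL-12 (SD, n = 3, adjusted p = 0.86 by edgeR). The values of Gbp10 and Gbp6 are uncertain as separate genes: 84.1% and 70.7% of their transcripts' 50-base words occur in transcripts of another gene, mostly each other or the readthrough gene Gm43302. Gbp4, Gbp8 and Gbp9 also overlap each other on the same strand in the annotation. Macrophage and dendritic cell markers other than Xcr1 summed to less in the IL-12 groups, as given above. Natural killer cell markers summed to 53.0 to 70.9 CPM over 4 genes in the IL-2 groups and 21.2 to 31.5 CPM in the IL-12 groups, nearly all of it Eomes, which CD8+ T cells also express. The other 3 summed to 2.05 to 5.39 CPM and 1.34 to 3.22 CPM, with overlap. The part of these cells in the result was not tested.

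**Figure D3:**
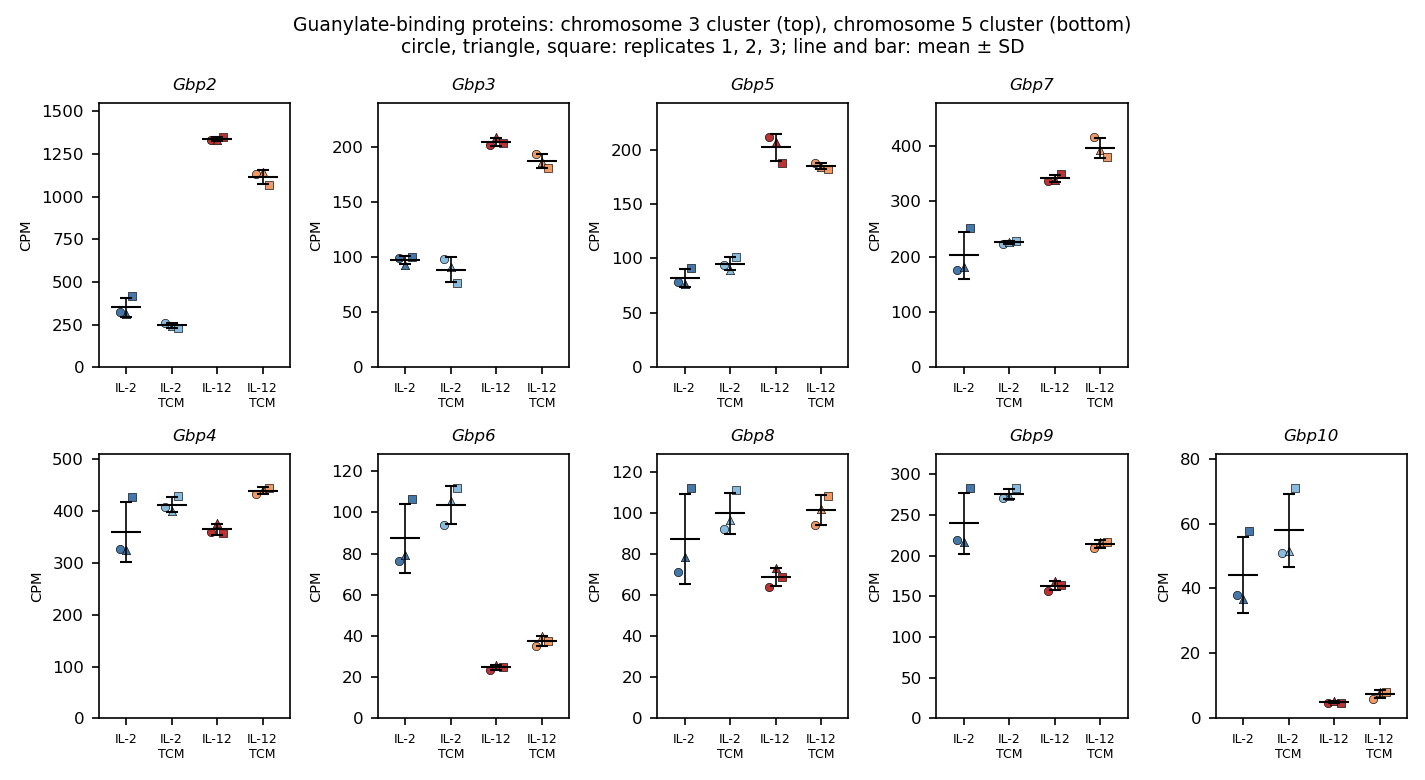
CPM of the 9 guanylate-binding proteins in each library, with the chromosome 3 cluster in the top row and the chromosome 5 cluster in the bottom row, the mean as a line and the SD (n = 3) as a bar. All 4 genes in the top row are higher in the IL-12 groups, while Gbp6 and Gbp10 in the bottom row drop to means of 24.7 and 4.96 CPM in IL-12.

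The immunity-related GTPases (IRGs), which act on parasite vacuoles together with the GBPs, did not follow the chromosome 3 GBPs. Iigp1 was at 231, 228 and 268 CPM in IL-2 and 90.98, 92.05 and 96.8 CPM in IL-12, and at 319.6, 329.9 and 289.9 CPM against 127, 131 and 134 CPM with TCM. Every IL-12 library was below every IL-2 library (log2 fold change -1.38 ± 0.07 (SE), adjusted p = 4.8e-09 without TCM, log2 fold change -1.26 ± 0.07 (SE), adjusted p = 8.5e-09 with TCM). Irgm1 and Irgm2, the regulatory members that keep the effector GTPases off host membranes, were lower in IL-12 too, with log2 fold changes of -0.84 (adjusted p = 6.7e-08) and -0.73 (adjusted p = 2.7e-07). Igtp, the remaining regulator and a neighbour of Irgm2 on chromosome 11, was not called in either comparison, at a mean of 447 ± 31.1 CPM in IL-2 and 475 ± 5.04 CPM in IL-12 (SD, n = 3).

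The IFIT family, which binds viral RNA ends, was the one family with no gene called lower in IL-12. Ifit3 was at 7.49, 7.37 and 6.66 CPM in IL-2 and 15.01, 16.3 and 16.3 CPM in IL-12 (log2 fold change 1.14 ± 0.09 (SE), adjusted p = 5.8e-07) and kept a log2 fold change of 0.98 (adjusted p = 2.4e-06) with TCM. Ifit3b, its close copy, had 1.09 (adjusted p = 0.0031), and Ifit2 0.44 (adjusted p = 0.00091). Ifit3 and Ifit3b share 51.2% and 45.0% of their 50-base words with other transcripts, almost all with each other, so their counts may not be separable. Ifit1 did not pass without TCM, at 7.23, 7.73 and 9.9 CPM in IL-2 and 8.73, 8.07 and 7.65 CPM in IL-12, and higher in IL-12 with TCM (log2 fold change 0.60 ± 0.15 (SE), adjusted p = 0.0065).

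All 6 genes of the OAS and PKR class, a class linked to the sensing of double-stranded RNA, were lower in IL-12 without TCM. Oas3, the member with the highest count among the OAS genes, was at 73.5, 81.4 and 121 CPM in IL-2 and 51.3, 51.2 and 55.2 CPM in IL-12 (log2 fold change -0.81 ± 0.15 (SE), adjusted p = 0.00065), with IL-2 replicate 3 well above its partners. Eif2ak2, which encodes PKR, was at 53.2, 55.9 and 62.03 against 39.9, 35.3 and 35.8 CPM (log2 fold change -0.62 ± 0.07 (SE), adjusted p = 1e-05). Oas1a, Oas2 and Oasl1 had log2 fold changes between -1.44 and -1.18, at levels below 10 CPM. Oas1a shares 57.6% of its 50-base words with Oas1g. With TCM, Oas1a and Eif2ak2 were lower again (Oas1a -0.58 (adjusted p = 0.038), and -0.35 (adjusted p = 0.18) with a replicate block for the IL-2 libraries), Oas2, Oas3 and Oasl1 were not called, and Oasl2 was higher (1.03 (adjusted p = 0.001)).

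Of the 5 nucleic acid sensors and their helper, 4 were lower in IL-12 without TCM. Ddx58, which encodes RIG-I, was at 95.3, 101 and 93.7 CPM in IL-2 and 64.8, 61.3 and 65.9 CPM in IL-12 (log2 fold change -0.59 ± 0.06 (SE), adjusted p = 2.3e-06). Ifih1, which encodes MDA5, had a log2 fold change of -1.20 (adjusted p = 7.1e-07), Dhx58, which encodes LGP2, -1.01 (adjusted p = 0.0036), and Trim25, the ligase that assists RIG-I, -0.79 (adjusted p = 6.5e-07). Zbp1, a sensor of Z-form nucleic acid that can trigger necroptosis, was the exception, at 80.5, 89.5 and 104 CPM in IL-2 and 99.03, 102 and 102 CPM in IL-12 (adjusted p = 0.16, groups overlapping). With TCM it was 1.77-fold higher in IL-12 (log2 fold change 0.82 ± 0.08 (SE), adjusted p = 3.2e-06).

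Of the 2 Mx GTPases and the 2 genes of the viperin locus, Mx1 and Cmpk2 were lower in IL-12 in both comparisons, Mx2 passed as lower without TCM and did not pass with it, and Rsad2 passed in neither. Mx1, which blocks influenza virus replication in mice that carry a functional allele, was at 16.5, 21.4 and 32.9 CPM in IL-2 and 8.25, 9.31 and 8.35 CPM in IL-12 (log2 fold change -1.45 ± 0.20 (SE), adjusted p = 7.1e-05), and IL-2 replicate 3 was the highest of all libraries. Cmpk2, a mitochondrial nucleotide kinase next to viperin, was at 14.8, 13.6 and 18.5 CPM in IL-2 and 3.43, 4.07 and 4.43 CPM in IL-12, 3.96-fold lower (log2 fold change -1.99 ± 0.15 (SE), adjusted p = 3.8e-07). With TCM the values were 9.35, 7.78 and 6.9 CPM in IL-2 and 1.88, 1.78 and 1.45 CPM in IL-12, 4.69-fold lower in IL-12. Rsad2, which encodes viperin itself, was near 3.05 CPM in IL-2 and 1.65 CPM in IL-12, and the difference did not pass (adjusted p = 0.051, and 0.1 with TCM). Mx2, the second Mx protein, was at 0.97, 1.37 and 1.47 CPM in IL-2 and 0.486, 0.519 and 0.252 CPM in IL-12 (log2 fold change -1.51 ± 0.30 (SE), adjusted p = 0.0011), and with TCM the groups overlapped (-0.26 (adjusted p = 0.55)).

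The Schlafen family, regulators of T cell quiescence and of translation that are clustered on chromosome 11, was mixed. Slfn5 was at 7.01, 8.34 and 6.75 CPM in IL-2 and 2.58, 2.99 and 2.21 CPM in IL-12 (log2 fold change -1.49 ± 0.15 (SE), adjusted p = 3.8e-06), without overlap. Slfn2, known for keeping T cells quiescent, was slightly higher in IL-12 without TCM (log2 fold change 0.32 (adjusted p = 0.047)), and Slfn1 did not pass (-0.00 (adjusted p = 0.99)). The small difference of Slfn8 (-0.21 (adjusted p = 0.037)) and that of Slfn2 did not pass under 12 and 11 of 23 other settings, with adjusted p values up to 0.18 and 0.19; the call of Slfn8 ended with a replicate block for the IL-2 libraries (-0.18 (adjusted p = 0.091)).

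Among the genes chosen from textbook families, Ifi44 and Usp18 had the largest excess in IL-12 over IL-2. No group lacked both cytokines, so the cytokine behind this difference was not tested. Ifi44 is an antiproliferative and antiviral microtubule-associated protein. It was at 4.41, 5.48 and 7.1 CPM in IL-2 and 45.7, 46.9 and 45.2 CPM in IL-12, 8.11-fold higher (log2 fold change 3.02 ± 0.15 (SE), adjusted p = 4.9e-09). With TCM it was at 2.96, 2.88 and 2.07 CPM in IL-2 and 15.2, 18.7 and 17.4 CPM in IL-12, 6.5-fold higher, and the cytokines did not overlap in either setting. Rtp4, a chaperone for G protein-coupled receptors, went the other way, at 8.42, 7.89 and 6.88 CPM in IL-2 and 1.54, 1.65 and 1.61 CPM in IL-12, 4.82-fold lower (log2 fold change -2.27 ± 0.19 (SE), adjusted p = 8e-07). Samd9l, an antiviral protein that also restrains proliferation, had a log2 fold change of -1.28 (adjusted p = 4.2e-08), Xaf1, which promotes apoptosis, -1.19 (adjusted p = 1e-07), Isg20, an exonuclease, -1.22 (adjusted p = 0.00016), and Bst2, the virus tether tetherin, -0.46 (adjusted p = 0.0017). Lgals3bp, a secreted glycoprotein, fell from 160.2, 161 and 159 to 96.7, 98.7 and 102 CPM (log2 fold change -0.69 ± 0.05 (SE), adjusted p = 2.5e-07), and Parp14 and Trim30a fell by less. Parp9, Ifi35 and Ifi203 were not called.

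The second question was what TCM did within each cytokine. Within IL-2, 5 of the 51 genes were higher with TCM and 10 lower, against 14.5% of all genes tested called, 6.73% higher and 7.82% lower. The median log2 fold change over the 51 was -0.06, against 0.00 over all genes. The groups did not overlap for 6 genes that were higher and 14 that were lower, against 13.1% and 14.3% of all genes (27.4% in either direction). When a term for the replicate number was added for the libraries that received IL-2, whose same-numbered libraries deviated together (a replicate block), 30 were called, 14 higher and 16 lower, among them all 15 of the first count. With both IL-2 replicate 3 libraries left out, 26 were called, 16 higher and 10 lower, with 14 shared, and without IL-2 replicate 3 alone 23 were called. The calls over all genes tested rose as well, from 2313 to 4442 with the block and 3936 without both replicate 3 libraries.

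The genes lower with TCM in IL-2 were led by Ifi44, Rtp4 and Cmpk2. Ifi44 was at 4.41, 5.48 and 7.1 CPM in IL-2 and 2.96, 2.88 and 2.07 CPM with TCM (log2 fold change -1.11 ± 0.18 (SE), adjusted p = 0.0014), and Rtp4 fell from 8.42, 7.89 and 6.88 to 3.73, 4.57 and 2.63 CPM (log2 fold change -1.08 ± 0.18 (SE), adjusted p = 0.002). Cmpk2 was at 14.8, 13.6 and 18.5 CPM without and 9.35, 7.78 and 6.9 CPM with TCM (log2 fold change -0.97 ± 0.15 (SE), adjusted p = 0.0012). In all 3 genes, no library with TCM reached the lowest library without it. Isg20, the exonuclease, was at 10.98, 13.2 and 20.2 against 7.51, 7.56 and 8.05 CPM (log2 fold change -0.94 ± 0.19 (SE), adjusted p = 0.0053), and its IL-2 replicate 3 was much above the other two. Herc6, the Isg15 ligase, was at 27.7, 27.9 and 30.4 against 18.3, 18.3 and 14.4 CPM (log2 fold change -0.76 ± 0.10 (SE), adjusted p = 0.00055). Lgals3bp was at 160.2, 161 and 159 against 109.9, 114 and 105 CPM (log2 fold change -0.54 ± 0.05 (SE), adjusted p = 5.1e-05), the smallest adjusted p among the 51 in this comparison. Xaf1, Gbp2 and Oasl2 were lower too, with log2 fold changes of -0.52 (adjusted p = 0.0011), -0.52 (adjusted p = 0.002) and -0.66 (adjusted p = 0.04), as was Samd9l at -0.25 (adjusted p = 0.0499). The calls of Oasl2 and Samd9l ended under 11 and 15 of the other settings, with adjusted p values up to 0.16 and 0.14.

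The genes higher with TCM in IL-2 were Slfn5, Usp18 and 3 IRGs. Slfn5 was at 7.01, 8.34 and 6.75 CPM without and 13.8, 13.2 and 11.7 CPM with TCM (log2 fold change 0.80 ± 0.14 (SE), adjusted p = 0.0021). Igtp was at 477, 415 and 449 against 629, 639 and 564 CPM (log2 fold change 0.45 ± 0.07 (SE), adjusted p = 0.0014), Iigp1 at 231, 228 and 268 against 319.6, 329.9 and 289.9 CPM (log2 fold change 0.37 ± 0.07 (SE), adjusted p = 0.0033) and Irgm2 at 109, 101 and 110.4 against 133, 139 and 136 CPM (log2 fold change 0.35 ± 0.05 (SE), adjusted p = 0.0012). None of these groups overlapped. Irgm1 did not pass (-0.03 (adjusted p = 0.72)). With the replicate block, 6 GBPs were called higher as well: Gbp4, Gbp5, Gbp6, Gbp8, Gbp9 and Gbp10, for example Gbp6 at a log2 fold change of 0.26 (adjusted p = 0.0027) and Gbp10 at 0.40 (adjusted p = 0.00018). Without the block these had overlapping groups, with the IL-2 replicate 3 value above the other two, as for Gbp10 at 38.1, 36.8 and 57.7 CPM without and 51.02, 51.7 and 70.9 CPM with TCM. Platelet markers (Pf4, Ppbp and 3 others) summed to 102.4 to 124 CPM in IL-2 and 41.8 to 54.2 CPM with TCM, and to 57.0 to 67.5 CPM in IL-12 and 23.2 to 29.5 CPM with TCM. Their part in the result was not tested.

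Within IL-12, 19 of the 51 genes were higher with TCM and 4 lower, against 29.0% of all genes tested called, 14.8% higher and 14.2% lower. The share called higher, 37.3%, lay above the background and the share called lower, 7.84%, below it, and the median log2 fold change was 0.22, against 0.01 over all genes. With only the IL-12 libraries in the fit, 35 were called, 26 higher and 9 lower, and the same numbers came from leaving out both replicate 3 libraries that received IL-2. The calls over all genes tested rose as well, from 4617 to 7133 and 7332 in these fits, in that order. The groups with and without TCM did not overlap for 28 genes that were higher and 10 that were lower, against 26.9% and 25.3% of all genes (52.1% in either direction).

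Slfn5 again rose the most among genes that moved alike in both cytokines, from 2.58, 2.99 and 2.21 to 4.95, 5.65 and 4.15 CPM (log2 fold change 0.90 ± 0.15 (SE), adjusted p = 0.00095). Isg15 rose from 6.41, 5.56 and 6.59 to 10.1, 12.1 and 9.99 CPM (log2 fold change 0.80 ± 0.14 (SE), adjusted p = 0.0011), and Ifit1 from 8.73, 8.07 and 7.65 to 12.3, 14.1 and 13.1 CPM (log2 fold change 0.69 ± 0.15 (SE), adjusted p = 0.004). For each of these, the lowest library with TCM was above the highest without it. Slfn8 rose from 49.4, 55.3 and 54.9 to 87.4, 83.1 and 82.9 CPM (log2 fold change 0.67 ± 0.08 (SE), adjusted p = 6.1e-05). The sensor Dhx58 rose from 11.2, 11.4 and 11.6 to 19.95, 19.9 and 18.4 CPM (log2 fold change 0.77 ± 0.24 (SE), adjusted p = 0.029), a call that ended when any 1 IL-12 library was left out, with adjusted p values up to 0.087. Its wide spread in the IL-2 80%TCM group, 19.4, 20.1 and 40.2 CPM, enters the shared estimate of variance.

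Among the GBPs, 4 of the 5 on chromosome 5 rose with TCM in IL-12. The difference between them and the chromosome 3 cluster was not tested. Gbp6 was at 23.5, 25.7 and 24.96 CPM without and 35.1, 40.2 and 37.3 CPM with TCM (log2 fold change 0.60 ± 0.12 (SE), adjusted p = 0.0021), and Gbp8 at 64.1, 73.2 and 69.1 against 93.95, 102 and 108 CPM (log2 fold change 0.56 ± 0.14 (SE), adjusted p = 0.008). Gbp9 and Gbp4 rose by log2 fold changes of 0.39 (adjusted p = 0.0038) and 0.27 (adjusted p = 0.03), while Gbp10, at 4.8, 5.41 and 4.68 against 5.92, 8.16 and 8.19 CPM, did not pass (adjusted p = 0.06). On chromosome 3, Gbp2 fell from 1331, 1331 and 1348 to 1134, 1145 and 1066 CPM (log2 fold change -0.26 ± 0.09 (SE), adjusted p = 0.036), and Gbp3 and Gbp5 had -0.13 (adjusted p = 0.21) and -0.13 (adjusted p = 0.19). Gbp7 was at 338, 338 and 349 against 416, 393 and 381 CPM, without overlap (0.22 (adjusted p = 0.14)). With the replicate block for the IL-2 libraries, Gbp7 was called higher (0.22 (adjusted p = 0.01)), Gbp10 higher (0.57 (adjusted p = 0.00033)) and Gbp5 lower (-0.13 (adjusted p = 0.031)); without both IL-2 replicate 3 libraries these 3 were called the same way and Gbp3 was called lower (-0.14 (adjusted p = 0.0065)). Of the IRGs, Iigp1 rose from 90.98, 92.05 and 96.8 to 127, 131 and 134 CPM (log2 fold change 0.49 ± 0.07 (SE), adjusted p = 0.00026), Irgm2 and Igtp rose by 0.28 (adjusted p = 0.0025) and 0.25 (adjusted p = 0.02), and Irgm1 did not pass (0.05 (adjusted p = 0.52)).

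The largest change with TCM in IL-12 was a fall. Ifi44 went from 45.7, 46.9 and 45.2 to 15.2, 18.7 and 17.4 CPM, 2.69-fold lower (log2 fold change -1.42 ± 0.14 (SE), adjusted p = 1.9e-05), although it remained above every IL-2 library. Cmpk2 fell from 3.43, 4.07 and 4.43 to 1.88, 1.78 and 1.45 CPM (log2 fold change -1.21 ± 0.19 (SE), adjusted p = 0.00052), and Lgals3bp from 96.7, 98.7 and 102 to 91.7, 92.1 and 84.3 CPM, a small change (log2 fold change -0.15 ± 0.05 (SE), adjusted p = 0.044). The calls of Gbp2 and Gbp4 also ended when any 1 of the 6 IL-12 libraries was left out, with adjusted p values up to 0.095 and 0.092. Those of Igtp, Slfn1 and Trim30a ended without some of these libraries, IL-12 replicate 1 among them for each (up to 0.14, 0.095 and 0.07), and that of Lgals3bp under 10 settings (up to 0.17).

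**Figure D4:**
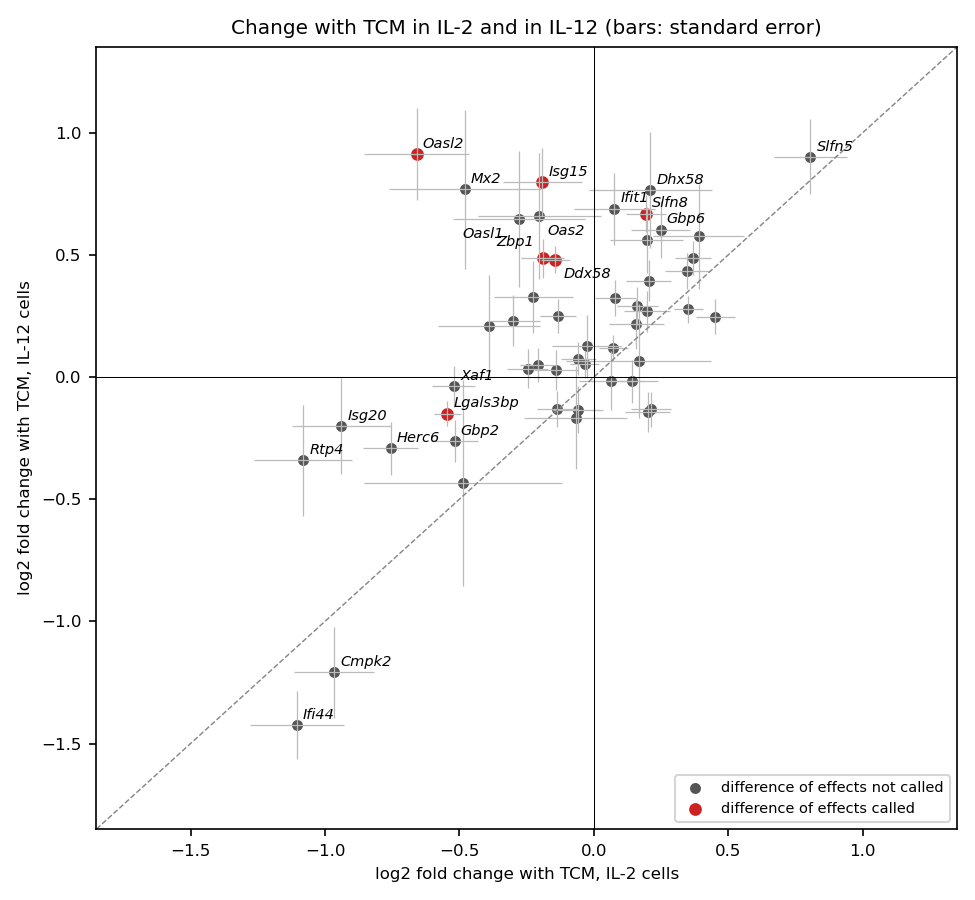
Log2 fold change with TCM in IL-2 (horizontal) and in IL-12 (vertical) for the 51 genes, with bars for the standard error, a dashed line of equal change and red points for the 6 genes whose difference between the cytokines passed the test. Those 6 lie above the line, while Ifi44 and Cmpk2 are low and Slfn5 is high on both axes.

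The comparisons of TCM within IL-2 and within IL-12 share no libraries. Usp18, Iigp1, Igtp, Irgm2 and Slfn5 were higher with TCM in both, and Cmpk2, Gbp2, Ifi44 and Lgals3bp lower in both. Oasl2 was lower with TCM in IL-2 and higher with TCM in IL-12. A further 13 genes were called higher in IL-12 and not called in IL-2, and 5 were called lower in IL-2 and not called in IL-12 (Herc6, Isg20, Rtp4, Xaf1, Samd9l). The difference of the effects itself passed for 4 of those 13 (Ddx58, Zbp1, Isg15, Slfn8) and for none of those 5, where the adjusted p ranged from 0.059 for Xaf1 to 0.25 for Samd9l in edgeR's test without the replicate block. With the replicate block for the IL-2 libraries it passed for 10 of those 13, adding Dhx58, Ifit1, Gbp6, Gbp8, Parp9 and Trim30a, and for 4 of those 5, Herc6 (0.47 (adjusted p = 0.023)), Isg20 (0.73 (adjusted p = 0.018)), Xaf1 (0.48 (adjusted p = 0.0042)) and Samd9l (0.28 (adjusted p = 0.044)). Without both IL-2 replicate 3 libraries it passed for 8 and for 1 (Xaf1). Both sets were picked by calls in these same libraries, which favours a difference of effects. The share that passed among all genes picked in this way was not counted.

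Over all 51 genes, the difference of the TCM effect (IL-12 minus IL-2) passed for 6, all in the direction of a more positive change in IL-12, against 1.58% of all genes tested, 1.19% more positive and 0.390% more negative. With that replicate block the count was 20, of which 18 were more positive in IL-12, and it contained all 6. Without the pair of replicate 3 libraries it was 18, 14 of them more positive. The calls over all genes tested rose as well, from 251 to 1668 with the block and 2105 without the pair. Oasl2 had the largest difference, at 3.44, 4.03 and 3.24 CPM in IL-2, 2.91, 2.32 and 1.6 CPM in IL-2 with TCM, 2.6, 2.62 and 2.06 CPM in IL-12 and 4.79, 4.6 and 4.5 CPM in IL-12 with TCM. The IL-12 libraries with TCM were the highest of all and the 2 changes went in opposite directions (difference of 1.57 on the log2 scale, adjusted p = 0.012). Isg15 followed with a difference of 0.99 (adjusted p = 0.028): its values given above were near 5 to 6 CPM in 3 groups and near 11 CPM in IL-12 with TCM.

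Ddx58 was at 95.3, 101 and 93.7 CPM in IL-2 and 90.1, 89.3 and 83.02 CPM with TCM, and at 64.8, 61.3 and 65.9 CPM in IL-12 and 93.5, 86.2 and 88.1 CPM with TCM. The IL-12 libraries thus lay below the IL-2 libraries without TCM, and the groups overlapped with TCM (difference 0.62 (adjusted p = 0.0019)). Zbp1 was at 80.3, 84.1 and 75.9 CPM in IL-2 with TCM and 138, 149.7 and 136 CPM in IL-12 with TCM, against 80.5, 89.5 and 104 and 99.03, 102 and 102 CPM without TCM (difference 0.68 (adjusted p = 0.01)). Slfn8 was at 55.7, 61.6 and 67.1 CPM in IL-2 and 73.4, 72.8 and 64.7 CPM with TCM, and at 49.4, 55.3 and 54.9 and 87.4, 83.1 and 82.9 CPM in IL-12 (difference 0.47 (adjusted p = 0.045)). For Lgals3bp the difference of 0.39 (adjusted p = 0.016) came from a larger fall in IL-2 than in IL-12. The calls of Isg15, Slfn8 and Lgals3bp ended under 9, 10 and 8 of 22 other settings, with adjusted p values up to 0.095, 0.15 and 0.1, and leaving out 1 library at a time gave between 3 and 12 genes (12 without IL-2 80%TCM replicate 3, and 3 without IL-2 80%TCM replicate 1, without any IL-12 library, or without IL-12 80%TCM replicate 1 or 2).

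**Figure D5:**
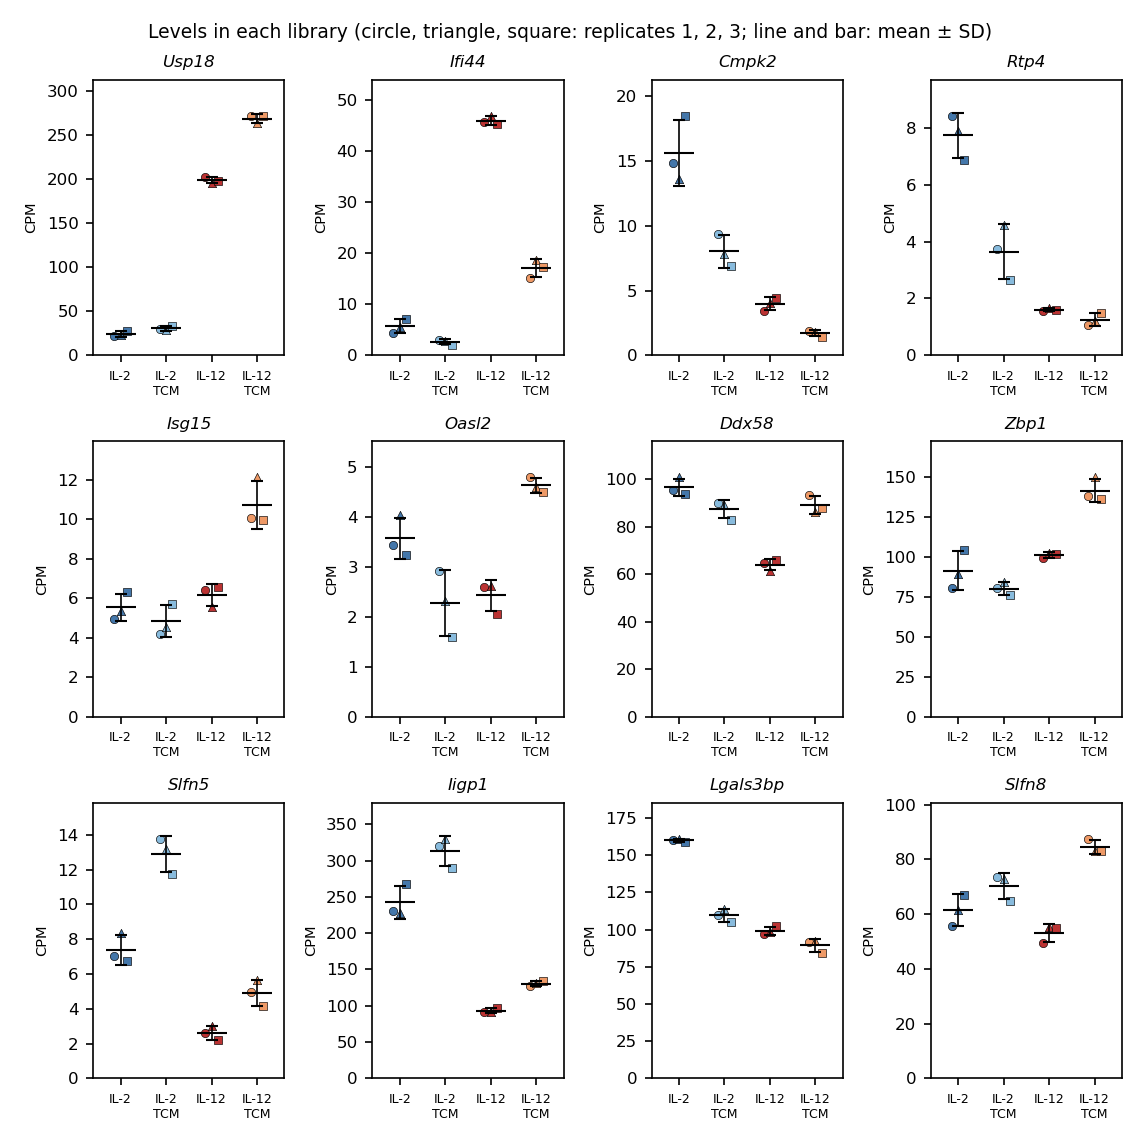
CPM of 12 interferon-stimulated genes in each library, with the mean as a line and the SD (n = 3) as a bar. Usp18 and Ifi44 are high in both IL-12 groups, Cmpk2 and Rtp4 fall from left to right, Isg15, Oasl2, Zbp1 and Slfn8 are highest in IL-12 with TCM, and Slfn5 and Iigp1 rise with TCM within each cytokine.

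The other genes of the interferon pathway were read from a list of 137 symbols, of which 109 were tested. Of these, 23 were higher (21.1%) and 52 lower (47.7%) in IL-12 without TCM, against 22.1% and 23.0% of all genes tested, so that the share called higher was at the background. With TCM, 26 were higher (23.9%) and 35 lower (32.1%), against 19.5% and 19.4%. Within IL-2, 10 rose with TCM (9.17%) and 12 fell (11%), against 6.73% and 7.82%, and within IL-12, 35 rose (32.1%) and 10 fell (9.17%), against 14.8% and 14.2%. Among 21 interferon ligands, 1 was tested. Ifng, the gene for interferon-gamma, was at 1.32, 2.21 and 1.07 CPM in IL-2 and 66.4, 67.97 and 58.9 CPM in IL-12, 41.5-fold higher (log2 fold change 5.37 ± 0.16 (SE), adjusted p = 3.7e-11). With TCM it was at 1.89, 1.36 and 1.91 CPM in IL-2 and 77.8, 87.02 and 85.2 CPM in IL-12, and the rise with TCM within IL-12 passed (log2 fold change 0.37 ± 0.11 (SE), adjusted p = 0.026). The type I and type III interferon genes had group means of at most 0.0872 CPM, the value of Ifnk in IL-2, and Ifnb1 was at means of 0.059, 0.0133 and 0.0503 CPM and at 0 in IL-12 with TCM.

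Of the receptors and kinases, 6 of 8 tested were lower in IL-12 without TCM and 1 was higher, against 23.0% and 22.1% of all genes tested. Ifngr2, the signalling chain of the interferon-gamma receptor, was at 17.5, 16.5 and 18.03 CPM in IL-2 and 4.06, 3.7 and 3.02 CPM in IL-12, 4.74-fold lower (log2 fold change -2.25 ± 0.11 (SE), adjusted p = 5.5e-09). Its partner Ifngr1 was slightly higher (0.28 (adjusted p = 0.027)). Both chains of the type I receptor were lower, Ifnar1 by -0.72 (adjusted p = 1.4e-07) and Ifnar2 by -1.01 (adjusted p = 9e-08) on the log2 scale. The receptors Ifnar1, Ifnar2 and Ifngr2 did not pass with TCM in either cytokine. Jak2 and Tyk2 were lower in IL-12 (-0.45 (adjusted p = 8.6e-06) and -0.25 (adjusted p = 0.012)).

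Of the transcription factors, 2 of 8 were higher (25%, against 22.1% of all genes tested) and 4 lower (50%, against 23.0%) in IL-12 without TCM. Stat2 and Irf9, which act in the complex that binds the ISRE, were lower (-0.53 (adjusted p = 0.00092) and -0.68 (adjusted p = 2.7e-07)). Irf7, which amplifies type I interferon production, was at 47.3, 48.2 and 51.4 CPM in IL-2 and 16.05, 18.1 and 18.1 CPM in IL-12 (log2 fold change -1.49 ± 0.07 (SE), adjusted p = 3e-09). Irf8, known in CD8+ T cells for effector differentiation, was higher (1.21 (adjusted p = 0.00026)), and Irf1 did not pass (0.12 (adjusted p = 0.17)). With TCM, Stat2 rose within IL-12 (0.57 (adjusted p = 0.0012)), while Irf7 fell within IL-2 (-0.61 (adjusted p = 0.00015)), and its effect differed between the cytokines (0.67 (adjusted p = 0.0057)). Among the inhibitors, Socs1 and Socs3, which block Janus kinases, were higher in IL-12 and rose with TCM in both cytokines. Socs1 was at means of 31.6, 48.3, 46.6 and 74.7 CPM in 4 groups, given as IL-2 without and with TCM and then IL-12 without and with TCM, and Socs3 at 31.6, 45.9, 81.01 and 126 CPM.

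Of 70 further interferon-stimulated genes tested outside the 51, 12 were higher (17.1%) and 35 lower (50%) in IL-12 without TCM, against 22.1% and 23.0% of all genes tested, with a median log2 fold change of -0.21. Higher ones included Ifitm1 and Ifitm3, which restrict virus entry, with 2.45 (adjusted p = 8.6e-09) and 1.62 (adjusted p = 1.4e-08), the inflammatory caspase Casp4 with 1.85 (adjusted p = 3.3e-11), and the chemokine Cxcl10 with 2.82 (adjusted p = 3.5e-07). Lower ones included Rnf213 (-1.13 (adjusted p = 5.8e-06)), Oas1c (-1.23 (adjusted p = 2.6e-06)) and Ms4a4c (-1.23 (adjusted p = 1e-05)). Within IL-12, 26 of the 70 rose with TCM (37.1%, against 14.8% of all genes) and 7 fell (10%, against 14.2%). Within IL-2, 6 rose (8.57%, against 6.73%) and 10 fell (14.3%, against 7.82%), among the latter Cxcl10 (-1.68 (adjusted p = 0.003)), which also fell within IL-12 (-1.88 (adjusted p = 4.8e-05)), and Ifitm3 (-1.29 (adjusted p = 1.1e-05)). The difference of the TCM effect passed for 4 of the 70 (Ifitm3, Ifi208, Trim21, Mov10; 5.71%, against 1.58%), again all more positive in IL-12.

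The promoter letters could be set beside the calls for the 36 genes with a promoter in the table. In IL-12 against IL-2 without TCM, the ISRE letters stood in 6 of 9 promoters of genes called higher, 8 of 20 of genes called lower and 4 of 7 of the rest. With TCM within IL-2 they stood in 3 of 3 promoters of genes called higher and 1 of 9 of genes called lower, and within IL-12 in 7 of 10 and 1 of 4. The promoter of Gbp2 holds the letters and the gene fell with TCM, whereas the promoters of Igtp, Irgm2 and Slfn5 hold them and the genes rose. Igtp and Irgm2 each have a GAS match next to the ISRE match. These counts rest on few promoters and carry no test.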

How the data were processed

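RNA from CD8+ T cells was sequenced in 12 libraries, 3 in each of 4 groups, assigned by the treatment label. Per the submitters' processing notes, reads were aligned with STAR 2.7.7a. The notes also name edgeR without a role and the human build GRCh38, while the gene identifiers are mouse Ensembl identifiers, so no gene coordinates were taken from the files. Per the labels, libraries used a directional total RNA kit; the extraction text there speaks of mouse livers and bortezomib. The counting tool and its strand setting are not given in the sources used here, and 13 of the genes overlap a gene on the opposite strand. The authors deposited whole-number counts per gene. The authors also deposited a signal value per gene and library, equal to the count divided by 1 constant per library. It was checked and used only in the limma alternatives.

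CPM here are counts per 1000000 of the library size scaled by TMM (own values over deposited ones 0.986 to 1.02). Genes passing filterByExpr (minimum count 10, minimum total 15) were fitted in edgeR 4.0.16 under R 4.3.3 with 1 mean per group over all 12 libraries (common biological coefficient of variation 0.104). Contrasts were tested by quasi-likelihood F tests, Benjamini-Hochberg adjusted over 15897 genes at 0.05. The SE is the log2 fold change divided by the root of F. Genes were matched to symbols by identifier (55141 of 55487). Alternatives (23) covered DESeq2 1.42.0, limma 3.58.1, other scaling, filters, the replicate block and each library left out. The fits were tested on simulated data.

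Same-numbered libraries of the 2 IL-2 groups correlated in their deviations from the group means (r = 0.28, 0.245 and 0.57 across genes, all above 0.1). Replicates 1 and 2 correlated as much across numbers (0.3 and 0.271), so only replicate 3 was set apart by its number. By the 0.1 rule, the replicate block within these groups is printed where it changes a count by over 1.5 times. No other groups had every same-numbered pair above 0.1. Up to 10 genes per comparison were given in every library: those called without overlap, with at least 5 CPM in the higher group, by fold change and at most 6 per direction (for the difference of effects, 6 by p). Members of each family were named beside them. The genes, lists and tests were chosen with earlier results of these data known. A gene of the pathway list is not reported here and was left out of its counts. Shared sequence was counted as 50-base words of GENCODE M21 transcripts; 15 promoters were not found in the RefSeq table.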

Additional observations from a re-analysis of the deposited data

Results flagged for a closer look

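The effect of TCM differed between IL-12 and IL-2 by the test of the difference itself (edgeR's quasi-likelihood test, Benjamini-Hochberg adjusted) for 6 of the 51 interferon-stimulated genes. Of all genes tested 1.58% passed, 1.19% as more positive in IL-12. Of the 6 calls, 3 held under every alternative, and those of Isg15, Slfn8 and Lgals3bp ended under some. The difference, as the log2 change in IL-12 minus that in IL-2, was 1.57 for Oasl2, 0.99 for Isg15, 0.68 for Zbp1, 0.62 for Ddx58, 0.47 for Slfn8 and 0.39 for Lgals3bp. The adjusted p ranged from 0.0019 for Ddx58 to 0.045 for Slfn8. In Oasl2 the TCM libraries moved in opposite directions, with all IL-2 libraries with TCM below those without and all IL-12 libraries with TCM above those without. In Lgals3bp both cytokines showed a fall, by -0.54 in IL-2 and -0.15 in IL-12.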

How the results depend on the processing

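No interferon-stimulated gene that was called changed direction under any of the 23 alternatives. Of the calls, 37 of 40 (IL-12 against IL-2 without TCM), 31 of 33 (with TCM), 16 of 23 (TCM within IL-12), 10 of 15 (TCM within IL-2) and 3 of 6 (difference of the effects) held under every alternative. The counts of genes for IL-12 against IL-2 stayed within 1.5 times, although upper-quartile scaling moved the split of all genes from 3511 higher and 3660 lower to 2593 and 4532 without TCM, and from 3106 and 3086 to 2331 and 3971 with TCM; among the 51 it moved no gene across direction.

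For TCM within IL-2, the 51 gave 15 calls and all genes 2313. A replicate block for the IL-2 libraries gave 30 and 4442, and leaving out both IL-2 replicate 3 libraries, a setting chosen after seeing the data, gave 26 and 3936. With the compared groups alone, 587 of all genes were called, and Usp18, Iigp1 and Isg20 lost their calls (adjusted p = 0.12, 0.057 and 0.054). Leaving out 1 library gave 13 to 23 of the 51 and 1292 to 2938 of all genes. For TCM within IL-12, with 23 and 4617, the compared groups alone gave 35 and 7133, the fit without both replicate 3 libraries 35 and 7332, and leaving out 1 library 16 to 28 and 2931 to 5697. For the difference of the effects, with 6 and 251, DESeq2 gave 10 and 550, no filter on low counts 13 and 779, the replicate block for the IL-2 libraries 20 and 1668, the fit without both replicate 3 libraries 18 and 2105, and leaving out 1 library 3 to 12 and 105 to 1164. The cause of these moves was not tested. The block over all libraries changed no count by over 1.5 times.

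The number of libraries, 3 a group, limits small changes, as does depth for the genes under about 3 CPM (Oas2, Oasl1, Mx2, Rsad2, Ifit3b).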

Other observations

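Further sensors, adaptors and kinases of nucleic acid sensing were also read outside the 51. Of 10 such genes tested, Cgas, Aim2, Tlr7 and Tlr9 are sensors. In IL-12 without TCM, 3 of the 10 were higher (30%) and 5 lower (50%), against 22.1% and 23.0% of all genes tested. Myd88, the adaptor of most Toll-like receptors, was at 49.9, 47.7 and 45.1 CPM in IL-2 and 126, 124 and 121 CPM in IL-12 (log2 fold change 1.38 ± 0.07 (SE), adjusted p = 8.6e-09), with no overlap. Ikbke, a kinase of interferon regulatory factors, was lower (-0.52 (adjusted p = 1.6e-05)), and Traf3 was higher (0.45 (adjusted p = 0.00073)). Aim2, a sensor of cytosolic DNA, rose with TCM in both cytokines, from 82.1, 85.4 and 93.3 to 113, 115 and 109.7 CPM in IL-2 and from 72.4, 72.6 and 75.4 to 113, 111 and 117 CPM in IL-12 (log2 fold change 0.37 ± 0.05 (SE), adjusted p = 0.00088 and log2 fold change 0.63 ± 0.05 (SE), adjusted p = 9.5e-06). The phosphatase Ptpn6 fell with TCM in both, from 216, 209 and 199 to 148, 142 and 147 CPM and from 239, 228 and 232 to 169.8, 163 and 163 CPM (log2 fold change -0.52 ± 0.05 (SE), adjusted p = 4e-05 and log2 fold change -0.49 ± 0.05 (SE), adjusted p = 1.8e-05).

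Gbp11, a further GBP, was at 9.43, 10.5 and 16.3 CPM in IL-2, 11.4, 10.7 and 16.1 CPM in IL-2 with TCM, 6.28, 8.02 and 7.65 CPM in IL-12 and 15.4, 15.6 and 16.04 CPM in IL-12 with TCM. It rose with TCM in IL-12 (log2 fold change 1.10 ± 0.20 (SE), adjusted p = 0.0013), and the difference of its effects did not pass (1.03 (adjusted p = 0.09)). Samhd1, which depletes nucleotides in resting cells, rose with TCM in IL-12 (0.37 (adjusted p = 0.0077)), with 0.03 (adjusted p = 0.84) in IL-2.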
